A study of Mus musculus with 4 samples.

Results

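The genes described here mark the oligodendrocyte lineage, the cells that myelinate axons in the brain. They are the 7 genes Olig1, Olig2, Pdgfra, Cspg4, Bcas1, Gpr17 and Mbp, taken by gene name from a table of 48395 genes. All 7 were in the table, each on 1 row. RNA was sequenced from 4 libraries of fluorescent cells sorted from the cortex of ICR mouse embryos at E16.5. The embryos had been electroporated in utero at E14.5, 48 hours earlier. The 2 control libraries came from cells that took up CAG-IRES-ZsGreen, a plasmid that drives the green fluorescent protein ZsGreen from the ubiquitous CAG promoter. The 2 Zeb1 libraries came from cells that took up CAG-Zeb1-IRES-ZsGreen, which drives the zinc-finger repressor Zeb1 from the same promoter. Both groups were therefore electroporated, dissociated and sorted, and both keep their own Zeb1 gene. The labels do not say whether replicates came from separate litters, so the p-values cover only the spread seen among these samples, which may be technical.

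Oligodendrocytes arise from neural progenitors that switch on the helix-loop-helix factors OLIG1 and OLIG2. The resulting oligodendrocyte progenitors carry the PDGF receptor alpha and the proteoglycan NG2, divide in response to PDGF, and then pass through a premyelinating stage marked by BCAS1 and GPR17. Mature cells make the proteins of compact myelin, among them myelin basic protein. In the mouse cortex most of this takes place around and after birth, and part of the early progenitors migrate in from the ventral forebrain.

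Values are FPKM, fragments per kilobase of gene scaled to sequencing depth, which correct for gene length and allow levels of different genes to be compared. How many reads stand behind a value is unknown, which leaves counting error out of reach. For short genes above 0 in both libraries, the most common ratio of FPKM was taken against control replicate 1. It was 0.993 for control replicate 2, 1.01 for Zeb1 replicate 1 and 0.964 for Zeb1 replicate 2. In that order, 65 of 412, 73 of 426 and 70 of 451 short genes had this ratio. It was sought only among ratios near 1, so it cannot show that depths were equal. The deposited values of Zeb1 were 35.2 and 18.6 FPKM in the controls against 5622 and 6227 FPKM in the Zeb1 libraries. The excitatory neuron factor Neurod6 of the cortex ranged from 376 to 495 FPKM over the 4 libraries. Of 12 excitatory-lineage genes, 1 was above and 6 below both controls in both Zeb1 libraries, against 18.2% and 19.5% of all genes tested. Among the 6 was the factor Tbr1, with 116 and 119 FPKM in the controls against 64.8 and 74.8 FPKM in the Zeb1 libraries. All 12 microglial markers examined were lowest in control replicate 2 and highest in Zeb1 replicate 1. Their summed level was 468 and 119 FPKM in the controls against 857 and 461 FPKM in the Zeb1 libraries, and none was listed at 0 in any library. Of all genes tested, 16.0% had this order of libraries.

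The members spanned a wide range of levels, in the order Olig1, Mbp, Olig2, Bcas1, Pdgfra, Cspg4 and Gpr17 by their mean over the 4 libraries. Those means were 8.22 ± 1.31, 6.75 ± 5.19, 6.58 ± 0.530, 3.08 ± 2.11, 0.730 ± 0.234, 0.309 ± 0.0600 and 0.0598 ± 0.0218 FPKM (SD, n = 4). Mbp did not differ from its neighbours Olig1 and Olig2 beyond its own spread. Among protein-coding genes of the same library, Olig1 lay at the 62.1 to 66.0 percentile, Olig2 at 60.7 to 61.3, Pdgfra at 40.5 to 45.5 and Gpr17 at 29.4 to 31.3. The early factors were thus present at moderate level, while markers of committed progenitors were low. Sox10, the factor that defines committed oligodendrocyte cells, ranged from 0.157 to 0.316 FPKM. Zfp488, an oligodendrocyte zinc-finger factor, was listed at 0 in all 4 libraries. Pdgfra, Cspg4, Gpr17, Sox10 and Zfp488 were therefore low in both groups. Markers of later stages were not all low. Bcas1 lay at the 47.6 to 59.8 percentile and Mbp at 51.5 to 72.4, and the myelin enzyme Cnp ranged from 3.67 to 7.88 FPKM. In a bulk measurement, fewer cells of a type and less RNA per cell cannot be told apart.

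**Figure D1:**
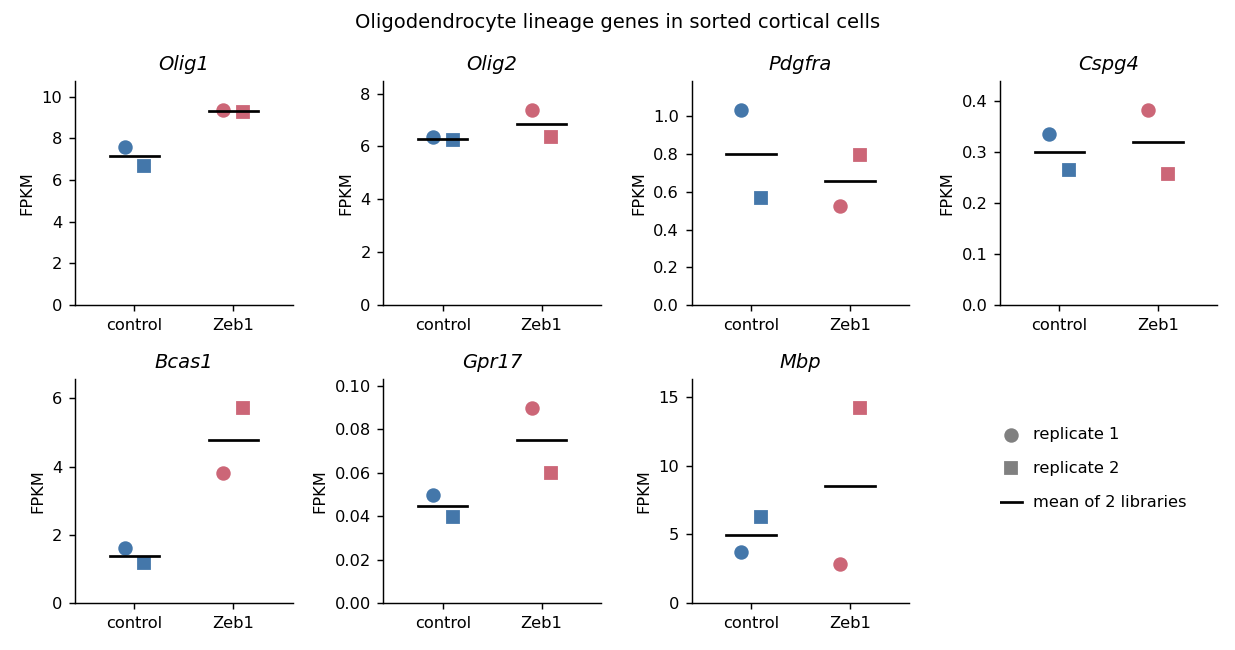
FPKM of each of the 7 members (y axis from 0, a scale of its own per gene) in the control and Zeb1 groups. Circles are replicate 1, squares replicate 2, and lines the mean of 2 libraries. The Zeb1 libraries lie above both controls for Olig1, Olig2, Bcas1 and Gpr17, and Mbp is highest in Zeb1 replicate 2, at 14.2 FPKM.

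The study's design compares Zeb1-overexpressing with control cells, and the question for these genes is whether they differ between the groups. Bcas1 had the largest difference among the 4 members that reached the level for testing, a 4-library mean of 1 FPKM or more. Of those 4 members, Olig1, Olig2, Bcas1 and Mbp, 0 passed limma's moderated test at an adjusted p under 0.05. At an unadjusted p under 0.05, 1 did, Bcas1. Over all 14330 genes tested, 0.195% passed the adjusted threshold, and an unadjusted p under 0.05 was reached by 3.23% on the higher and 3.68% on the lower side. Both Zeb1 libraries were above both controls for 3 of the 4 tested members, against 18.2% of all genes tested, and for Gpr17 below the level for testing. None of the 4 was below both controls in both Zeb1 libraries, against 19.5% of all genes tested, and neither was any of the 3 other members. The median log2 fold change of the 4 tested members, Zeb1 minus control on log2(FPKM + 1), was 0.37, against 0.0003 over all genes tested. Over all 7 members, in a fit without the minimum, it was 0.10.

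Olig1 and Olig2 are neighbouring genes on chromosome 16 of GRCm38 that encode closely related helix-loop-helix factors. OLIG2 specifies the lineage and is also present in dividing progenitors, while OLIG1 acts in maturation. Olig2 (ENSMUSG00000039830.8, plus strand, positions 91225550 to 91228677) had 6.35 and 6.24 FPKM in the controls against 7.37 and 6.35 FPKM in the Zeb1 libraries. Zeb1 replicate 2 was almost level with the controls, above control replicate 1 in the third decimal only (6.353 against 6.349 FPKM). The log2 fold change was 0.10 with a standard error of 0.16 (95% interval -0.34 to 0.55, limma adjusted p = 0.897). The interval reaches 0.55, so a rise of that size was not excluded at 2 libraries per group.

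Olig1 (ENSMUSG00000046160.6, plus strand, positions 91269772 to 91271933) had 7.57 and 6.69 FPKM in the controls against 9.35 and 9.27 FPKM in the Zeb1 libraries. The groups did not overlap, and the Zeb1 pair lay close together. Like the microglial markers, Olig1 and Olig2 were lowest in control replicate 2 and highest in Zeb1 replicate 1, and the part of microglia in their values was not tested. The log2 fold change was 0.34 with a standard error of 0.15 (95% interval -0.07 to 0.76), and the limma adjusted p was 0.749. Olig1 was above Olig2 in all 4 libraries, with a ratio of 1.19 and 1.07 in the controls and 1.27 and 1.46 in the Zeb1 libraries. The noncoding gene Gm15966 on the opposite strand overlaps an Olig1 exon. It was listed at 0 in 3 libraries and at 1.64 FPKM in Zeb1 replicate 1, and nothing in the sources used here says that reads were counted by strand.

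Promoter sequences were read for the 3 members found in the RefSeq table of GRCm38.p6, Olig2, Pdgfra and Cspg4. They bear on the comparison because ZEB1 is known to bind the E-box CACCTG. The 250 bases before the start of Olig2 (chr16:91225300-91225549, plus strand) and of Pdgfra (chr5:75152001-75152250, plus strand) are shown as those of a lineage factor and of the receptor of its progenitors. Capitals mark any E-box of the general form CANNTG, which reads alike on both strands and includes CACCTG.
Olig2: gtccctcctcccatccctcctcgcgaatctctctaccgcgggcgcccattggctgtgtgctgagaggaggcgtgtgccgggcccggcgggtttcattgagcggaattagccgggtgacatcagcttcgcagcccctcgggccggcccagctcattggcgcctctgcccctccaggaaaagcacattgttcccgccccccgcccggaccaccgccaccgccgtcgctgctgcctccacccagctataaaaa
Pdgfra: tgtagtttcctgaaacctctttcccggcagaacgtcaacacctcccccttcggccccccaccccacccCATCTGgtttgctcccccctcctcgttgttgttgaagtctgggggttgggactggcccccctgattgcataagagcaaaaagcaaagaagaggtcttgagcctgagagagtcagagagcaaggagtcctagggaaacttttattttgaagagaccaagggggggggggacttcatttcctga
CACCTG, searched on both strands (CAGGTG on the other), was found in 0 of the 3 promoters, and in 17.2% of all 32851 RefSeq promoters of that length. The general form CANNTG was found in 66.2% of all promoters, and among the 3 only Pdgfra held a match, CATCTG, beginning 182 bases before the start. A match of letters is a description, and these windows leave out everything farther from the start.

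Pdgfra encodes the receptor through which PDGF drives progenitor division, and Cspg4 encodes the NG2 proteoglycan of the same cells and of pericytes. Pdgfra (ENSMUSG00000029231.15, chromosome 5, plus strand, positions 75152292 to 75198215) had 1.03 and 0.567 FPKM in the controls against 0.526 and 0.794 FPKM in the Zeb1 libraries. The groups overlapped, with the highest and the second-lowest value both among the controls. Cspg4 (ENSMUSG00000032911.5, chromosome 9, plus strand, positions 56865104 to 56899870) had 0.335 and 0.264 FPKM in the controls against 0.381 and 0.256 FPKM in the Zeb1 libraries. These groups overlapped as well, and within each group replicate 2 was the lower. Both genes were below the level for testing. In a fit without that minimum, the log2 fold change was -0.11 for Pdgfra (95% interval -0.75 to 0.53) and 0.02 for Cspg4 (-0.23 to 0.27), with limma adjusted p of 0.911 and 0.983. On the log2(FPKM + 1) scale, changes of genes this low are compressed. The pericyte markers Rgs5 and Kcnj8 lay between 0.497 and 1.51 FPKM and between 0.193 and 0.310 FPKM. The summed level of the 12 mural cell markers was 12.9 and 11.2 FPKM in the controls against 22.7 and 10.5 FPKM in the Zeb1 libraries. Within that sum, Anpep had 4.10 and 2.89 against 8.39 and 0.351 FPKM. Of the 4 mural markers tested, 3 were above and 0 below both controls in both Zeb1 libraries, against 18.2% and 19.5% of all genes tested. The 3 were Tagln, Vtn and Notch3, and of all 12 listed, 4 were above and 0 below. Tagln and Notch3 had the library order of the microglial markers, whose part was not tested. The summed level of the 12 fibroblast markers was 6.91 and 8.94 FPKM in the controls against 10.4 and 14.2 FPKM in the Zeb1 libraries. Only 2 reached the level for testing, Ptgds and Igf2, and the groups of both overlapped. Ptgds, also a gene of oligodendrocytes, had 2.68 and 5.23 against 2.77 and 9.24 FPKM. Igf2 had 2.90 and 2.35 against 4.68 and 2.59 FPKM. Of all 12, 7 were above and 0 below both controls in both Zeb1 libraries, against 18.2% and 19.5% of all genes tested. All 7 were below the level for testing, whereas those shares come from genes that reached it, so the 2 are not on the same base. Among the 12, Dpt was listed at 0 in 3 of the 4 libraries and Lum reached at most 0.0766 FPKM. The collagen gene Col1a1 had 0.380 and 0.120 against 1.1003 and 0.593 FPKM. The part of these cells in the values of Pdgfra and Cspg4 was not tested.

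Bcas1, which marks oligodendrocytes at the onset of myelination, was the member with the largest difference. Bcas1 (ENSMUSG00000013523.13, chromosome 2, minus strand, positions 170346991 to 170427845) had 1.61 and 1.17 FPKM in the controls against 3.82 and 5.72 FPKM in the Zeb1 libraries. Both Zeb1 libraries were more than double either control, and Zeb1 replicate 2 was the highest. The group means were 1.39 ± 0.317 and 4.77 ± 1.34 FPKM (SD, n = 2 each), a 3.43-fold ratio. The log2 fold change on log2(FPKM + 1) was 1.26 with a standard error of 0.27 (95% interval 0.49 to 2.02). The unadjusted p from limma was 0.0104 and the adjusted p over all genes was 0.560, so Bcas1 did not pass. With a pseudocount of 0.1 in place of 1, the log2 fold change was 1.70 (adjusted p = 0.476). With 1 library left out at a time, it lay between 1.02 and 1.497, and the unadjusted limma p was 0.0603 without control replicate 2. Microglial markers were also lowest in control replicate 2, but highest in Zeb1 replicate 1, where Bcas1 was not. Their part in the Bcas1 difference was not tested. The antisense genes Bcas1os1 and Bcas1os2 overlap Bcas1 exons and reached at most 0.251 and 0.0511 FPKM.

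**Figure D2:**
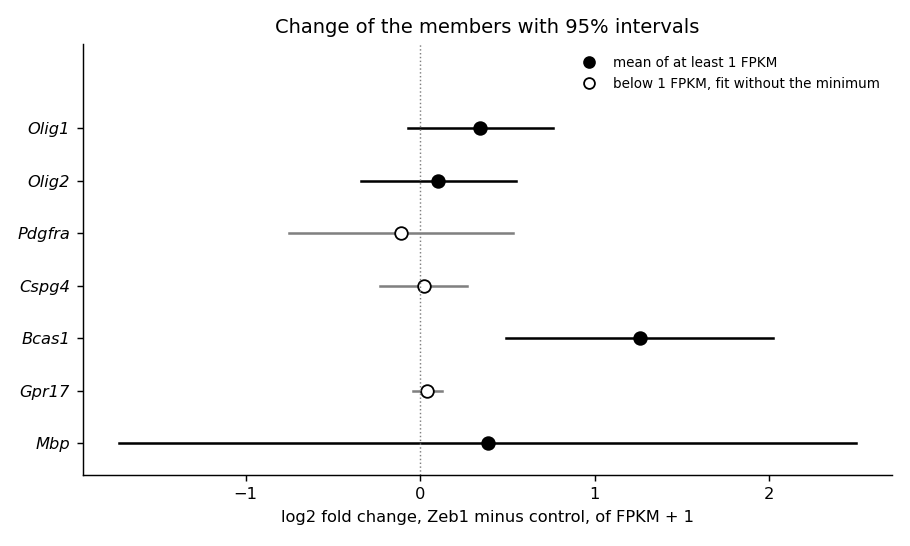
Log2 fold change (x axis, Zeb1 minus control, of FPKM + 1) of each member with its 95% interval. Filled points are the 4 tested members and open points the 3 members below 1 FPKM, from a fit without that minimum. The interval of Bcas1, 0.49 to 2.02, lies above 0, and the interval of Mbp is the widest, from -1.72 to 2.50.

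Gpr17, a receptor of premyelinating cells, was the member of lowest level. Gpr17 (ENSMUSG00000052229.5, chromosome 18, minus strand, positions 31942997 to 31949636) had 0.0497 and 0.0395 FPKM in the controls against 0.0899 and 0.0601 FPKM in the Zeb1 libraries. The groups did not overlap, and all 4 values were the lowest of any member. Their order over the libraries was that of the microglial markers, whose part was not tested. In the fit without the minimum, the log2 fold change was 0.04 (95% interval -0.04 to 0.12, limma adjusted p = 0.783). Exons of Lims2 on the opposite strand overlap those of Gpr17, and Lims2 had 0.0668 and 0.0332 FPKM in the controls against 0.134 and 0.152 FPKM in the Zeb1 libraries. Without strand, reads from the overlap cannot be told apart.

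Mbp was higher in replicate 2 than in replicate 1 of both groups. It encodes myelin basic protein, and the same locus also yields the golli proteins, which are made in cells other than myelinating ones. FPKM per gene do not separate the 16 transcripts that GENCODE M21 lists for it. Mbp (ENSMUSG00000041607.16, chromosome 18, plus strand, positions 82475146 to 82585637) had 3.69 and 6.26 FPKM in the controls against 2.83 and 14.2 FPKM in the Zeb1 libraries. The lowest and the highest value were both in the Zeb1 group, where replicate 2 was 5.03 times replicate 1. In the controls, replicate 2 was 1.69 times replicate 1. The log2 fold change was 0.39 with a standard error of 0.76 (95% interval -1.72 to 2.50), and the limma adjusted p was 0.927. Without Zeb1 replicate 2 it was -0.61, and without Zeb1 replicate 1 it was 1.38, so its direction rested on which Zeb1 library was used.

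Several genes of mature myelin were also higher in replicate 2 of both groups. Mobp, a protein of compact myelin, was listed at 0 in control replicate 1 and had 0.738 FPKM in control replicate 2, against 0.0332 and 2.19 FPKM in Zeb1 replicates 1 and 2. Cnp, an enzyme of myelinating cells, had 3.67 and 6.91 FPKM in the controls against 6.16 and 7.88 FPKM in the Zeb1 libraries. Mag, an adhesion protein of the inner myelin layer, had 0.573 and 0.720 FPKM in the controls against 0.277 and 0.756 FPKM in the Zeb1 libraries. Replicate 2 was thus the higher in both groups for these 3 genes. Mal and Cldn11, of myelin membranes and their tight junctions, were chosen after their values were seen and were highest in Zeb1 replicate 2 too, at 0.337 and 0.344 FPKM. Mog, a protein of the outer myelin surface, differed little between replicates, with 1.65 and 1.71 FPKM in the controls against 1.496 and 1.53 FPKM in the Zeb1 libraries, replicate 2 being slightly the higher in both groups. This order of libraries was counted after the values were seen. With Mbp added to the 29 listed differentiation and myelin genes, 14 of 30 had replicate 2 above replicate 1 in both groups, against 18.2% of the 28492 genes above 0 in any library. Of these 30 genes, 10 were highest in Zeb1 replicate 2, against 19.6% of those genes. What replicate 2 shares in the 2 groups is not given in the labels, and its part in these values was not tested.

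**Figure D3:**
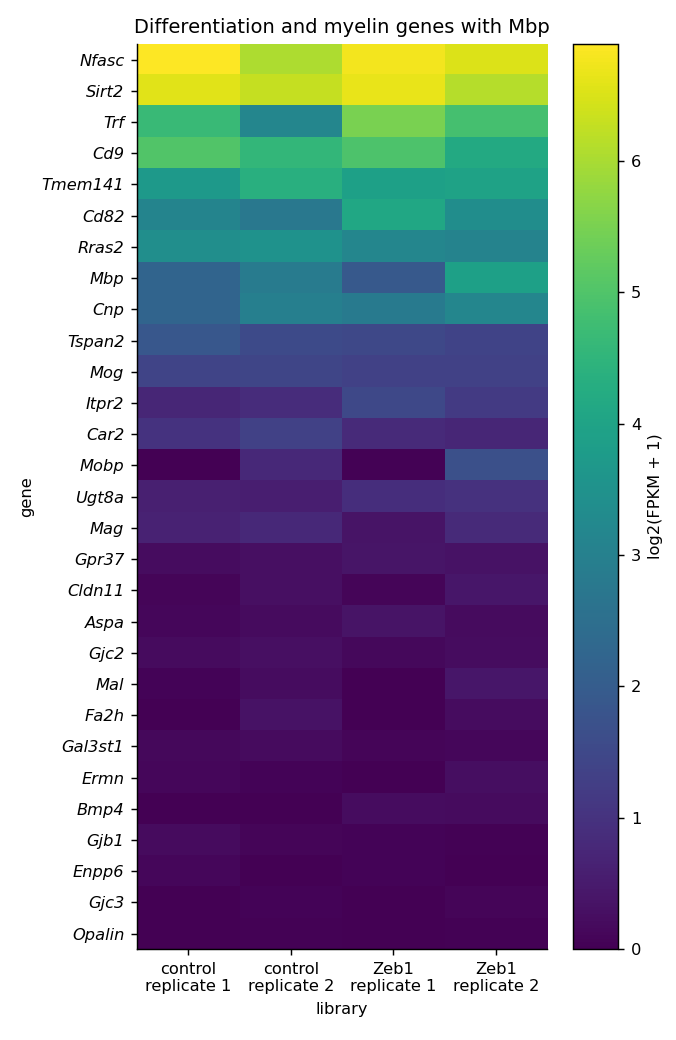
Log2(FPKM + 1) (colour) of 28 of the 29 genes of the differentiation and myelin list and Mbp (rows, by mean level) in the 4 libraries (columns). Mbp and Mobp are brightest in Zeb1 replicate 2, at 14.2 and 2.19 FPKM, and 16 of the 29 genes drawn lie below a mean of 1 FPKM.

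In the whole list of differentiation and myelin genes, 13 of 29 were tested and 0 passed limma's adjusted test. Without adjustment, 0 were past a p of 0.05 in either direction. The median log2 fold change of the 13 was -0.05. Of the 13, 3 were above both controls in both Zeb1 libraries and 4 were below, against 18.2% and 19.5% of all genes tested, and of all 29 listed, 6 were above and 6 below. Itpr2, a calcium release channel of newly formed oligodendrocytes, had 0.672 and 0.830 FPKM in the controls against 1.83 and 1.27 FPKM in the Zeb1 libraries. It reached the mean of 1 FPKM through the Zeb1 libraries alone. Enpp6, of the same stage, was at most 0.0789 FPKM in any library. The iron carrier Trf had 24.2 and 7.87 FPKM in the controls against 44.6 and 28.2 FPKM in the Zeb1 libraries, and the tetraspanin Cd82 had 7.66 and 5.74 against 16.3 and 9.31 FPKM. Both were lowest in control replicate 2 and highest in Zeb1 replicate 1, as the microglial markers were, and the part of those cells was not tested. Rras2, a RAS-family GTPase, had 9.51 and 10.5 FPKM in the controls against 7.88 and 7.41 FPKM in the Zeb1 libraries. Car2, a carbonic anhydrase, had 1.03 and 1.54 against 0.783 and 0.663 FPKM. It is among the 4 genes below both controls and reached the mean of 1 FPKM through the controls alone.

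Transcription factors that specify oligodendrocytes showed no gene past the threshold. Of 25 listed, 19 were tested and 0 passed limma's adjusted test, and 0 were past an unadjusted p of 0.05. The median log2 fold change of the 19 was 0.09. Of the 19, 6 were above and 3 below both controls in both Zeb1 libraries, against 18.2% and 19.5% of all genes tested, and of all 25 listed, 7 were above and 3 below. Among the 3 below was Prrx1, with 1.18 and 1.38 FPKM in the controls against 1.04 and 0.873 FPKM in the Zeb1 libraries. Its mean in the Zeb1 libraries was 0.957 FPKM, so it reached the level for testing through the controls. Sox8, which acts beside SOX9 and SOX10 in the lineage, had 4.77 and 6.13 FPKM in the controls against 10.7 and 7.20 FPKM in the Zeb1 libraries. Its groups did not overlap, with a log2 fold change of 0.61 and a limma adjusted p of 0.749. Sox9, a gliogenic factor of progenitors, had 18.9 and 20.6 against 25.6 and 20.9 FPKM. Tcf7l2, a Wnt effector of differentiating oligodendrocytes, had 4.18 and 2.64 against 7.24 and 4.98 FPKM, a log2 fold change of 0.69 (limma adjusted p = 0.749). Id2, an inhibitor of helix-loop-helix factors, had 192.1 and 198.8 FPKM in the controls against 159 and 142 FPKM in the Zeb1 libraries, with a log2 fold change of -0.38 (limma adjusted p = 0.742). The chromatin remodeller Chd7 had 13.74 and 13.72 against 17.3 and 16.7 FPKM, and the Notch effector Hes1 had 11.2 and 18.03 against 22.9 and 18.7 FPKM. Sox11, a neuronal factor, had 308 and 494 against 211 and 317 FPKM, groups that overlapped. Nkx2-2, a factor of the premyelinating switch, reached at most 0.532 FPKM, and Myrf, the regulator of myelin genes, was at 0.375 and 0.225 against 0.587 and 0.436 FPKM. Of the 19 tested, 6 had the library order of the microglial markers, against 16.0% of all genes tested, Tcf7l2 and Chd7 among the 6. Myrf had that order too, and the part of microglia was not tested.

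Most growth factors and receptors of progenitors reached the level for testing, which Pdgfra did not. Of 26 listed, 22 were tested and 0 passed limma's adjusted test, while 1 was higher and 0 were lower when the unadjusted p had to be under 0.05. The median log2 fold change was 0.20. Of the 22, 5 were above and 3 below both controls in both Zeb1 libraries, against 18.2% and 19.5% of all genes tested. The ligand Pdgfa had 6.86 and 10.1 FPKM in the controls against 8.75 and 9.07 FPKM in the Zeb1 libraries, groups that overlapped. Pdgfb had 3.38 and 0.962 against 2.46 and 2.82 FPKM, Pdgfc 3.10 and 3.999 against 2.88 and 2.15 FPKM, and the sister receptor Pdgfrb 1.05 and 1.22 against 1.55 and 1.11 FPKM. Among these PDGF genes, only the groups of Pdgfc did not overlap. Egfr, the EGF receptor of glial progenitors, was the gene past the unadjusted threshold, with 2.70 and 1.95 FPKM in the controls against 4.65 and 6.29 FPKM in the Zeb1 libraries. Like Bcas1, it was lowest in control replicate 2 and highest in Zeb1 replicate 2. Its log2 fold change was 0.96 with a standard error of 0.25 (unadjusted p = 0.0179, limma adjusted p = 0.605). The chemokine receptor Cxcr4 had 7.07 and 4.58 against 14.1 and 8.72 FPKM, and its ligand Cxcl12 had 26.6 and 23.2 against 19.3 and 12.6 FPKM. Smo, the transducer of hedgehog signals, had 14.96 and 15.4 against 17.8 and 20.4 FPKM. The FGF receptor Fgfr3 had 29.3 and 17.0 against 36.2 and 30.7 FPKM, and the hedgehog coreceptor Cdon had 42.8 and 34.0 against 50.9 and 44.1 FPKM. Of the 22 tested, 8 had the library order of the microglial markers, against 16.0% of all genes tested. Cxcr4, Fgfr3 and Cdon were among the 8, and the part of microglia was not tested. The neuregulin receptor Erbb3, a marker of the lineage, reached at most 0.0853 FPKM.

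Of 19 other genes enriched in progenitors, 10 were tested and 0 passed limma's adjusted test, while 1 was higher and 0 were lower when the unadjusted p had to be under 0.05. The median log2 fold change of the 10 was 0.18. Of the 10, 5 were above and 1 below both controls in both Zeb1 libraries, against 18.2% and 19.5% of all genes tested, and of all 19 listed, 7 were above and 1 below. The proteoglycan Vcan had 36.0 and 23.5 FPKM in the controls against 48.0 and 54.1 FPKM in the Zeb1 libraries, a log2 fold change of 0.79 (unadjusted p = 0.0357, limma adjusted p = 0.691). The brain proteoglycan Bcan had 14.8 and 13.8 against 17.1 and 21.2 FPKM, with groups that did not overlap, and Cspg5 had 11.4 and 15.9 against 10.8 and 10.7 FPKM. The receptor phosphatase Ptprz1, also abundant in radial glia, had 80.5 and 69.3 against 86.6 and 86.8 FPKM. The protease inhibitor Serpine2 had 6.74 and 4.16 against 8.63 and 6.70 FPKM, and the auxiliary AMPA receptor subunit Cacng4 had 71.8 and 65.3 against 76.6 and 76.0 FPKM. Serpine2 and Cacng4 had the library order of the microglial markers, whose part was not tested. More selective progenitor genes were low, with C1ql1 at 0.508 to 0.753 FPKM and Lhfpl3 at 0.0931 to 0.341 FPKM.

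The ventral forebrain, a source of early progenitors, was examined through 12 genes of the ganglionic eminences. Of these, 9 were tested and 0 passed limma's adjusted test, also at an unadjusted p under 0.05, with a median log2 fold change of 0.10. Dlx1 and Dlx2, homeobox factors of ventral progenitors that restrain Olig2, had 17.2 and 17.3 against 14.7 and 15.8 FPKM and 7.81 and 6.66 against 6.19 and 6.68 FPKM. The groups did not overlap for Dlx1 and overlapped for Dlx2. Dlx5 had 4.59 and 3.15 against 6.84 and 4.62 FPKM, and Dlx6 had 1.58 and 1.89 against 1.99 and 2.42 FPKM. Dlx5 had the library order of the microglial markers, whose part was not tested. Gad1, which makes GABA, had 5.60 and 3.91 against 4.52 and 8.19 FPKM. Gsx2, a patterning factor of the lateral eminence, had 1.42 and 0.806 against 1.07 and 0.752 FPKM.

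**Figure D4:**
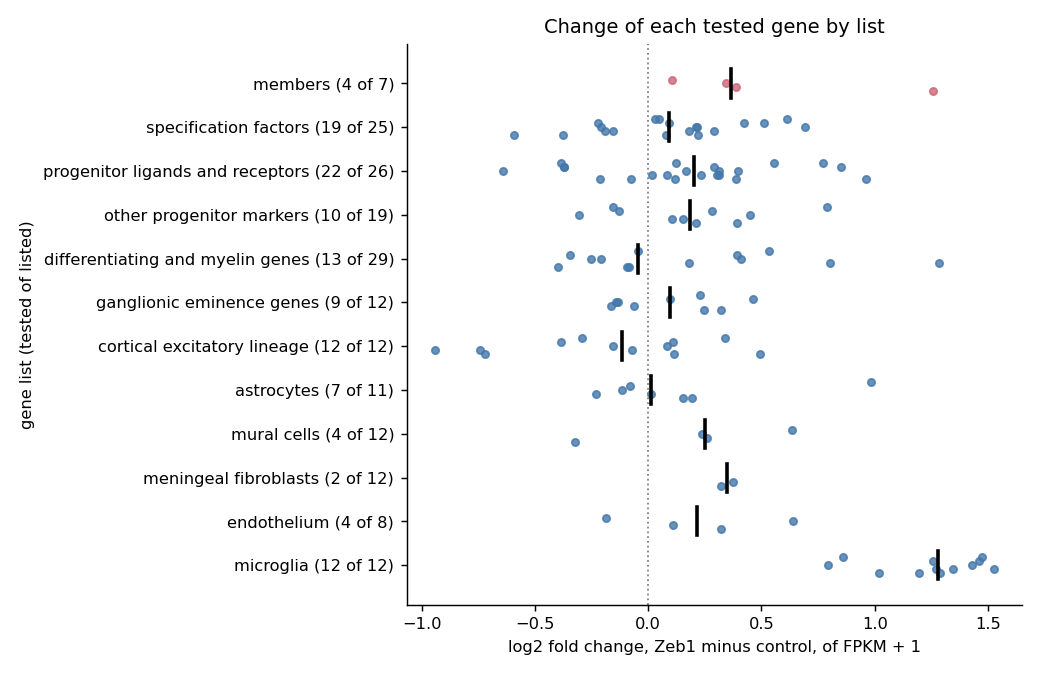
Log2 fold change (x axis, Zeb1 minus control, of FPKM + 1) of each tested gene, by list, with the number tested of those listed. Black bars are list medians and the dotted line is the median over all genes tested. The 4 tested members lie between 0.10 and 1.26, and the 12 microglial markers between 0.80 and 1.53.

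Genes with the most similar values across the 4 libraries were found by the root mean square difference between centred log2(FPKM + 1) profiles, over 11895 other protein-coding genes. For Olig1 these were Eva1b, Rftn1 and C1galt1, at 0.00700 to 0.0134, and for Olig2 they were Crlf2, Pds5b and Ints6, at 0.00715 to 0.00979. Within 0.1 of Olig1 there were 529 genes and within 0.1 of Olig2 there were 1581. The distance is not scaled to how much a gene varies, so counts of neighbours also depend on that. Bcas1 and Mbp were added to this comparison after their values were seen. Within 0.1 of Bcas1 there were 3 genes, Rsad2 at 0.0495, Ano4 at 0.0833 and Synpr at 0.0994. Rsad2, an antiviral gene, had 0.514 and 0.215 FPKM in the controls against 1.54 and 2.72 FPKM in the Zeb1 libraries. Within 0.1 of Mbp there were 0 genes. The nearest was Ptgds, a prostaglandin D synthase of meninges and oligodendrocytes, at 0.200, with 2.68 and 5.23 FPKM in the controls against 2.77 and 9.24 FPKM in the Zeb1 libraries.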

How the data were processed

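The authors deposited FPKM for each gene in each of the 4 libraries. The submitters' processing notes name STAR, Cufflinks, DESeq2 and build GRCm38 but give neither versions nor roles, and strand handling is not given in the sources used here. FPKM are not counts, so limma 3.58.1 was run in R 4.3.3 on log2(FPKM + 1) of all 4 libraries, 2 per group, with an intensity trend. Those with a 4-library mean of 1 FPKM or more were tested, 14330 in all, two-sided, with Benjamini-Hochberg adjustment over all of them at a threshold of 0.05. With 2 against 2 libraries, the smallest two-sided p of an exact permutation test is 0.333. Of the gene names, 27 that a spreadsheet had turned into dates were restored from 27 identifiers, and 1 was added to gene starts. The line emptied in the table is not analysed here, and some listed genes are counted but not reported singly. Of the steps, only the limma fit was tested on simulated data.

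The members and lists were chosen with earlier results of these data known. The lists hold 5 groups of pathway genes and 6 cell types. Named genes are the 7 members, up to 6 genes per pathway list by smallest p, genes named for their role, markers, and the 3 most similar profiles. The fit was repeated with a pseudocount of 0.1 or 0.5, without the filter, with a minimum of 5 FPKM, and with rescaling to equal totals, median-of-ratios scaling, quantile normalization, no trend, robust moderation, a replicate block, protein-coding genes alone, and leaving out each library. Plots were made in Python 3.11.15 (matplotlib 3.10.9).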

Additional observations from a re-analysis of the deposited data

How the results depend on the processing

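Under all 15 alternatives run, 0 members passed limma's adjusted test, with 0 or 1 at an unadjusted p under 0.05. The log2 fold change stayed positive under every alternative for Bcas1 (1.02 to 1.70, adjusted p 0.228 to 0.974, not tested at a mean of at least 5 FPKM), Olig1 (0.27 to 0.42) and Olig2 (0.01 to 0.20). That of Mbp was -0.61 without Zeb1 replicate 2 and 0.07 to 1.38 under the other alternatives. The median over the tested members was 0.37, or 0.10 over all 7 without a filter. It ranged between 0.27 and 0.86 with 1 library left out, and the high end came without Zeb1 replicate 1. Of all genes, 28 passed, against 1 without a filter, 11 with a replicate block, 3 among protein-coding genes alone, and 0 with any 1 library left out (690 to 1325 at an unadjusted limma p under 0.05). With a library left out, the lone library of its group is assumed to vary like the other group. The replicate block gave adjusted p of 0.510 for Bcas1, 0.651 for Olig1, 0.868 for Olig2 and 0.790 for Mbp. The labels give a shared number only. Deviations of same-numbered libraries correlated at 0.083 over all genes tested and 0.368 over protein-coding ones. With 2 libraries per group and unknown depth, the spread of members below 1 FPKM cannot be split into counting and other error.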

Other observations

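Astrocyte genes, the other glial lineage that follows neurons in the cortex, were measured beside the oligodendrocyte genes. Of 11 listed, 7 were tested and 0 passed limma's adjusted test, while 1 was higher at an unadjusted p under 0.05, with a median log2 fold change of 0.01. That gene was the glutamate transporter Slc1a2, with 2.72 and 1.79 FPKM in the controls against 4.57 and 6.29 FPKM in the Zeb1 libraries (log2 fold change 0.98, limma adjusted p = 0.621). Its relative Slc1a3, of radial glia and astrocytes, had 28.3 and 28.1 against 36.6 and 28.5 FPKM, in the library order of the microglial markers, whose part was not tested. Aqp4 and Gfap, markers of mature astrocytes, were at most 0.313 and 0.645 FPKM. Of 12 genes of the excitatory lineage, 12 were tested and 0 passed the adjusted test, while unadjusted p under 0.05 gave 0 higher and 3 lower genes, with a median of -0.11. The 3 were Tbr1, Emx1 with 64.1 and 96.2 against 41.7 and 39.1 FPKM, and the glutamate transporter Slc17a7 with 11.9 and 10.0045 against 6.70 and 5.78 FPKM. The median was 1.28 over 12 microglial markers, 0.21 over 4 tested of 8 endothelial markers, 0.25 over 4 tested of 12 mural markers and 0.35 over 2 tested of 12 fibroblast markers, and 0 of these passed limma's adjusted test or an unadjusted p of 0.05.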
